A study of Mus musculus with 14 samples.

Results

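The genes Runx1, Runx2, Runx3 and Cbfb encode the 3 RUNX transcription factors (TFs) and CBFβ, the partner protein they share. They were taken by name, 4 of 21774 coding genes, and every ChIP-seq peak that overlapped the RefSeq span of a member or the 30 kb on either side of it was collected. The 14 peak lists held 158488 peaks, of which 188 lay at these loci: 99 at Runx1, 45 at Runx2, 27 at Runx3 and 17 at Cbfb. Merging overlapping peaks gave 129 regions at the loci, of 117293 genome-wide.

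RUNX proteins bind DNA through the runt domain, and CBFβ, which does not itself contact DNA, joins them and strengthens that binding. RUNX1 is needed for the step in which hemogenic endothelium gives rise to blood cells. RUNX2 is known for bone formation, and RUNX3 for T cells and sensory neurons. Each Runx gene is transcribed from a distal promoter, P1, and a proximal promoter, P2, which give proteins with different amino termini. An intronic enhancer active in emerging blood cells is known to lie between P1 and P2 of Runx1.

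All cells came from a mouse embryonic stem cell line, strain 129, that carries a GFP reporter in the brachyury gene and was differentiated in culture. The sorted populations were mesoderm (MES, brachyury GFP+ and Flk1-), hemangioblast (HB, brachyury GFP+ and Flk1+), hemogenic endothelium (HE, Tie2+, cKit+ and CD41-), hematopoietic progenitors (HP, CD41+) and macrophages (MAC, CD11b+), the last grown from the CD41+ cells. The lists were C/EBPβ in all 5 stages, ELK4 in MES, GATA2 in HB and HP, GATA1 and GFI1B in HP, and PU.1 and RUNX1 in HP and MAC. Each list is 1 sample with no replicate, so no difference between lists could be set against a replicate spread and none was tested. The lists give positions and no peak height. They ranged from 72 peaks (MAC RUNX1) to 82866 (MAC PU.1). The p-value threshold of each was set by eye, so a peak count does not measure an amount of binding. By the study's methods, qPCR on the chromatin showed no enrichment at the sites tried for MES C/EBPβ, HB C/EBPβ, HB GATA2 and MAC RUNX1. These libraries were sequenced all the same. For HP GATA2 the enrichment listed was below the minimum that the study generally asked for. The sort markers could not be checked in data that hold peaks and no expression.

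Runx1 had a peak in 11 of the 14 lists, including all 6 HP lists, whereas Runx2 and Runx3 had peaks in 3 lists each and Cbfb in 5. The MAC C/EBPβ and MAC PU.1 lists gave 154 of the 188 peaks. Genome-wide they held 55471 and 82866 of the 158488 peaks, so they made up most of the peaks there as well. Of the 34 peaks from the 12 shorter lists, 20 lay at Runx1. No peak of RUNX1, GATA1 or GATA2 lay at Runx2, Runx3 or Cbfb. Those lists reached from 0.423% (HB GATA2) to 9.43% (HP RUNX1) of coding genes, so most genes had no such peak.

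At Runx1 the MES C/EBPβ list had 1 peak. Of all coding genes, 7.83% had at least 1 peak of that list within a span extended in the same way. Such shares of coding genes, here and below, were not matched for span length. The HB C/EBPβ list had 1 peak at Runx1 (5.14% of coding genes). The HP C/EBPβ list had 3 at Runx1 and 1 at Cbfb (17.9% of coding genes). The HP lists of GATA1, GATA2 and GFI1B had 1, 2 and 2 peaks at Runx1, with 2.23%, 4.19% and 14.4% of coding genes holding a peak, and GFI1B had 1 more at Cbfb. Each of these HP factors thus had a peak at Runx1, and GATA1 and GATA2 had none at the other members.

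RUNX1 itself had 3 HP peaks at its own gene, and 9.43% of coding genes had a peak of that list. It had 2 MAC peaks there, from a list that reached 0.602% of coding genes. HP PU.1 peaks numbered 5 at Runx1, 6 at Runx2, 3 at Runx3 and 3 at Cbfb (44.1% of coding genes). MAC C/EBPβ peaks numbered 30, 16, 5 and 5 in the same order (77.3% of coding genes), and MAC PU.1 peaks 49, 23, 19 and 7 (81.3%). The presence of a MAC PU.1 or MAC C/EBPβ peak was thus common to most coding genes. The number of peaks was not, since 12 coding genes (0.0551%), Runx1 among them, had as many MAC PU.1 peaks as Runx1, and 30 (0.138%) as many MAC C/EBPβ peaks. These counts are not per length, and the density per 100 kb is given further on.

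The remaining lists had no peak at any of the 4 loci. They were MES ELK4 (0 of 524 peaks, which allows a share of up to 0.573% of the list, and 5.75% of coding genes had a peak), HB GATA2 (0 of 97, up to 3.09%, and 0.423% of coding genes) and HE C/EBPβ (0 of 132, up to 2.27%, and 0.85% of coding genes). These limits are 3 peaks over the length of the list, and are not the Clopper-Pearson limits used for the other shares. They, and all intervals given here, cover counting error alone.

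**Figure D1:**
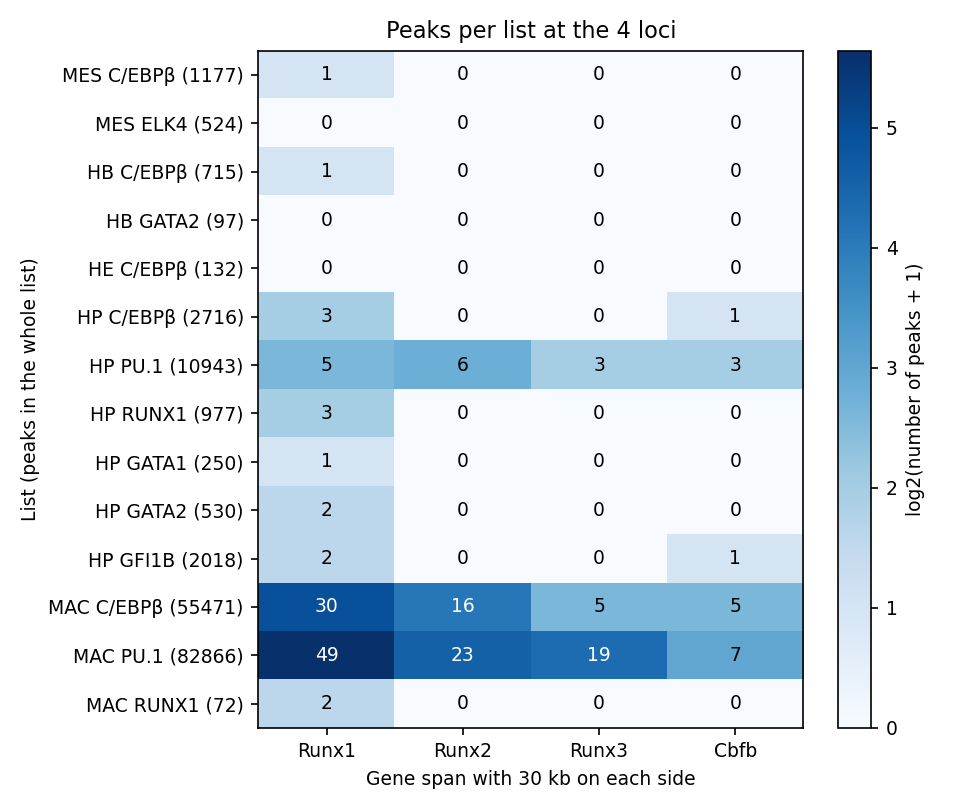
Number of peaks (printed in each cell, shaded as log2 of the count plus 1) for the 14 lists in rows and the 4 gene spans with 30 kb on each side in columns, with the length of each list in brackets. Runx1 has peaks in 11 rows, Runx2 and Runx3 in 3 and Cbfb in 5.

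Runx1 occupies chr16:92601466-92826074 on the minus strand of GRCm38. P1, the start of 2 curated transcripts, is at base 92826074, and P2, the start of 2 others, lies 128.75 kb further along the direction of transcription at base 92697329. All distances below are measured from P1 in that direction. The 99 peaks merged into 63 regions, of which 49 were centred in introns. The stretch from P1 to P2 held 52 peaks (40.4 per 100 kb), the stretch from P2 to the gene end 33 (34.4 per 100 kb), and the 30 kb upstream and the 30 kb downstream 7 each (23.3 per 100 kb). Of the 20 peaks from the 12 shorter lists, 17 lay between P1 and P2 and none lay outside the gene.

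**Figure D2:**
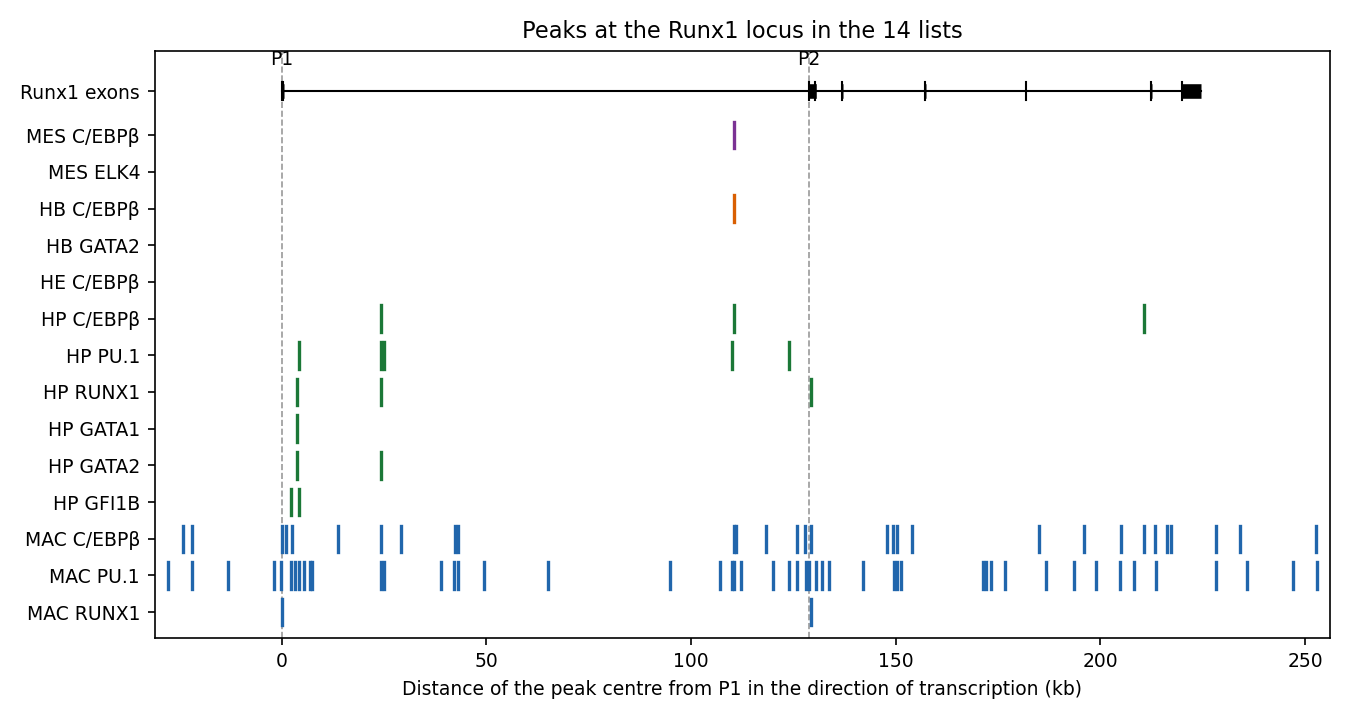
Peak centres at Runx1 by list (rows, coloured by stage) against distance from P1 in kb, with the exons of the curated transcripts above and P1 and P2 as dashed lines. The HP peaks lie from +2.26 to +4.27 kb, near +24 kb and near +110 kb, with 1 each at +123.9 kb, P2 and +210.7 kb. The peaks of MAC C/EBPβ and MAC PU.1 are spread over the locus.

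At Runx1 20 of 63 regions (31.7%, 95% Clopper-Pearson interval 20.6 to 44.7) were in at least 2 lists and 6 (9.52%, 3.58 to 19.6) in at least 3. Over all regions the shares were 28% and 5.44%, each within the interval at Runx1. Only 97 regions in the genome were in 6 or more lists, and 3 of them lay between P1 and P2 of Runx1, at +4.0, +24.3 and +110.3 kb. These counts rest on merging at 1 bp of overlap. With at least 200 bp required, 68 regions were in 6 or more lists, and of the 3 at Runx1 that at +24.3 kb alone still was, that at +110.3 kb falling into regions of 5 and 2 lists and that at +4.0 kb into 2 regions of 3 lists. Each of the 3 held a different set of factors.

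The region at +4.0 kb (chr16:92821606-92822625, Runx1 intron) was in 6 lists with 5 factors. It was the one region at the locus with peaks of RUNX1, GATA1, GATA2, GFI1B and PU.1 in HP, a combination found in 10 regions genome-wide. Its sides were joined by the edges of their peaks, GFI1B overlapping RUNX1 by 57 bp and GATA2 by 13 bp, and with 200 bp of overlap required RUNX1, GATA1 and GATA2 formed 1 region and GFI1B and PU.1 another. The combination was then found in 8 regions. The peak centres were spread over 620 bp and formed an order along the gene: GATA1 at +3.65 kb, GATA2 at +3.76, RUNX1 at +3.80, GFI1B at +4.15, HP PU.1 at +4.27 and MAC PU.1 at +4.27 kb. GATA1, GATA2 and RUNX1 therefore sat on the side nearer to P1, and GFI1B and PU.1 on the other. No C/EBPβ peak of any stage lay in it.

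The sequences under both sides of this region are shown because the factors were centred apart from each other in it. Both are RefSeq GRCm38 sequence on the minus strand, read 5′ to 3′ with the gene, and so run from nearer to P1 to further away. In all sequences printed here, capitals mark matches on either strand to a consensus, which was TGTGGTT for RUNX, TTGCNNAA for C/EBP, GAGGAAGT for PU.1, AGATAA for GATA, CCGGAAGT for ELK4, AATCNNNGC for GFI1B and TGANTCA for AP-1. They also mark looser forms, which were TGTGGT or TGCGGT for RUNX, TGATAA for GATA and AGGAAG for the core that ETS factors share. TGTGGT lies within the longer RUNX form and AGGAAG within the PU.1 form.
RUNX1 and GATA side, chr16:92822165-92822464: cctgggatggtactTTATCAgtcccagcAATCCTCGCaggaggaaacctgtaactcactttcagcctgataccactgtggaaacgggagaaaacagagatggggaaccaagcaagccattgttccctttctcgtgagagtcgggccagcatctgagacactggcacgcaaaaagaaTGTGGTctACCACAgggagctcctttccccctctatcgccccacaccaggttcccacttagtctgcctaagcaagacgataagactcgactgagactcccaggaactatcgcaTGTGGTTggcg
PU.1 and GFI1B side, chr16:92821747-92821946: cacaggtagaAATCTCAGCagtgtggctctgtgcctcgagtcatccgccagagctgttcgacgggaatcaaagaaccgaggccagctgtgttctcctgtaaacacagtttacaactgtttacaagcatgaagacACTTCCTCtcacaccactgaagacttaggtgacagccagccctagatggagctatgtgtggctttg

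In the first sequence a facing pair of TGTGGT matches lay 7 and 15 bp from the centre of the RUNX1 peak, and the full TGTGGTT lay 98 bp from it. The match nearest to the GATA1 centre was a GFI1B consensus, 6 bp from it. A TGATAA match lay 22 bp from the GATA1 centre and 133 bp from the GATA2 centre, and AGATAA was in neither of these peaks. In the second sequence the PU.1 consensus lay 3 bp from the HP PU.1 centre and the GFI1B consensus 4 bp from the GFI1B centre. Another full RUNX consensus, cut by the start of the printed sequence, lay on this side at +4.13 kb, 18 bp from the GFI1B centre, so each side held 1. Among the central 300 bp of all regions, 24.3% held TGTGGT, 8.39% TGTGGTT, 10.0% TGATAA and 10.2% the GFI1B consensus. Among the central 200 bp, 16.7% held the PU.1 consensus and 6.82% that of GFI1B. Over the 400-bp peaks of the factor's own HP list the shares were higher. They were 42.1% for PU.1, 44.95% for GFI1B and 26.2% for RUNX1 with TGTGGTT. The matches are descriptions of these letters and do not show which factor used them.

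The region at +24.3 kb (chr16:92801508-92802076, Runx1 intron) was in 6 lists with 4 factors. In HP it held RUNX1, GATA2, PU.1 and C/EBPβ, a combination found in 10 regions genome-wide, and in MAC it held PU.1 and C/EBPβ. GATA1 and GFI1B had no peak in it. The centres lay within 169 bp of each other, from +24.20 kb for MAC PU.1 to +24.37 kb for GATA2, which is closer together than at +4.0 kb. A second HP PU.1 peak, with its MAC counterpart, stood alone at +25.01 kb.

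None of the 7 consensus sequences occurred in the central 300 bp at +24.3 kb, although 6 lists had a peak there, which is why this sequence is shown. It is on the minus strand and follows the gene.
Runx1 +24.3 kb, chr16:92801644-92801943: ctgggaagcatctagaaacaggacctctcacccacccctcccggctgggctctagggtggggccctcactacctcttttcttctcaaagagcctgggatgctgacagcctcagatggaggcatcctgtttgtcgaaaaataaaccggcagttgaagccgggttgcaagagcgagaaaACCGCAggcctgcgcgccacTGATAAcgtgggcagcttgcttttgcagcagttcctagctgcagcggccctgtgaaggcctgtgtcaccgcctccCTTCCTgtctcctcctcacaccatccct
With the looser forms, which were added after the sequence had been seen, 3 matches appeared. A TGCGGT lay 10 bp from the centre of the HP RUNX1 peak, on the opposite side from a TGATAA that also lay 10 bp from it and 36 bp from the GATA2 centre. The ETS core lay 159 bp from the HP PU.1 centre. Over the central 300 bp of all regions TGCGGT was found in 4.18%, TGATAA in 10.0% and AGGAAG in 61.1%.

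The region at +110.3 kb (chr16:92715366-92716217, Runx1 intron, 18.5 kb before P2) was in 6 lists with 2 factors and 4 stages. It was the one place at the 4 loci with peaks in MES and HB. C/EBPβ peaks were centred at +110.46 kb in MES, HB and HP and at +110.43 kb in MAC, and the MES peak was shifted by 1 bp from those of HB and HP. Of all regions, 317 had C/EBPβ in these 4 stages. The HE C/EBPβ list, with 132 peaks, had none here. By the study's methods it was called at a stricter threshold than the other C/EBPβ lists. Its lack of a peak is therefore not comparable with them. The study's qPCR gave enrichment of HE C/EBPβ at a target named for Runx, whose position was not compared with the regions here. PU.1 peaks lay at +110.06 kb in HP and at +110.06 and +110.51 kb in MAC, and the HP PU.1 peak overlapped the HP C/EBPβ peak by 4 bp, so these HP peaks met at their edges.

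The sequence under the C/EBPβ centres is shown because a peak recurred there from mesoderm to macrophages, the MES and HB peaks coming from lists without qPCR enrichment.
Runx1 +110.3 kb, chr16:92715468-92715767: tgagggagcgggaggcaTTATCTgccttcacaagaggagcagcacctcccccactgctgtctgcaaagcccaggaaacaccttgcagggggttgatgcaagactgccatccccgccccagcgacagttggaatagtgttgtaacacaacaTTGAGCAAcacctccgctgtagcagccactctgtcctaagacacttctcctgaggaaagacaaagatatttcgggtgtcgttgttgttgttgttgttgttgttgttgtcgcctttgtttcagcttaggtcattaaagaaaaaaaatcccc
It held 1 C/EBP consensus, whose middle lay 3 bp from the HB and HP C/EBPβ centres, 4 bp from the MES centre and 29 bp from the MAC centre. It also held 1 AGATAA, 130 bp or more from the centres of the MES, HB and HP peaks, and no GATA1 or GATA2 peak was found there. The C/EBP consensus occurred in 23.2% of the central 300-bp windows of all regions and AGATAA in 13.3%. Over the 400-bp peaks of the whole C/EBPβ lists, the C/EBP consensus was in 61.3% (MES), 59.2% (HB), 64.0% (HP) and 41.9% (MAC). A match under a C/EBPβ peak was therefore common in these lists.

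**Figure D3:**
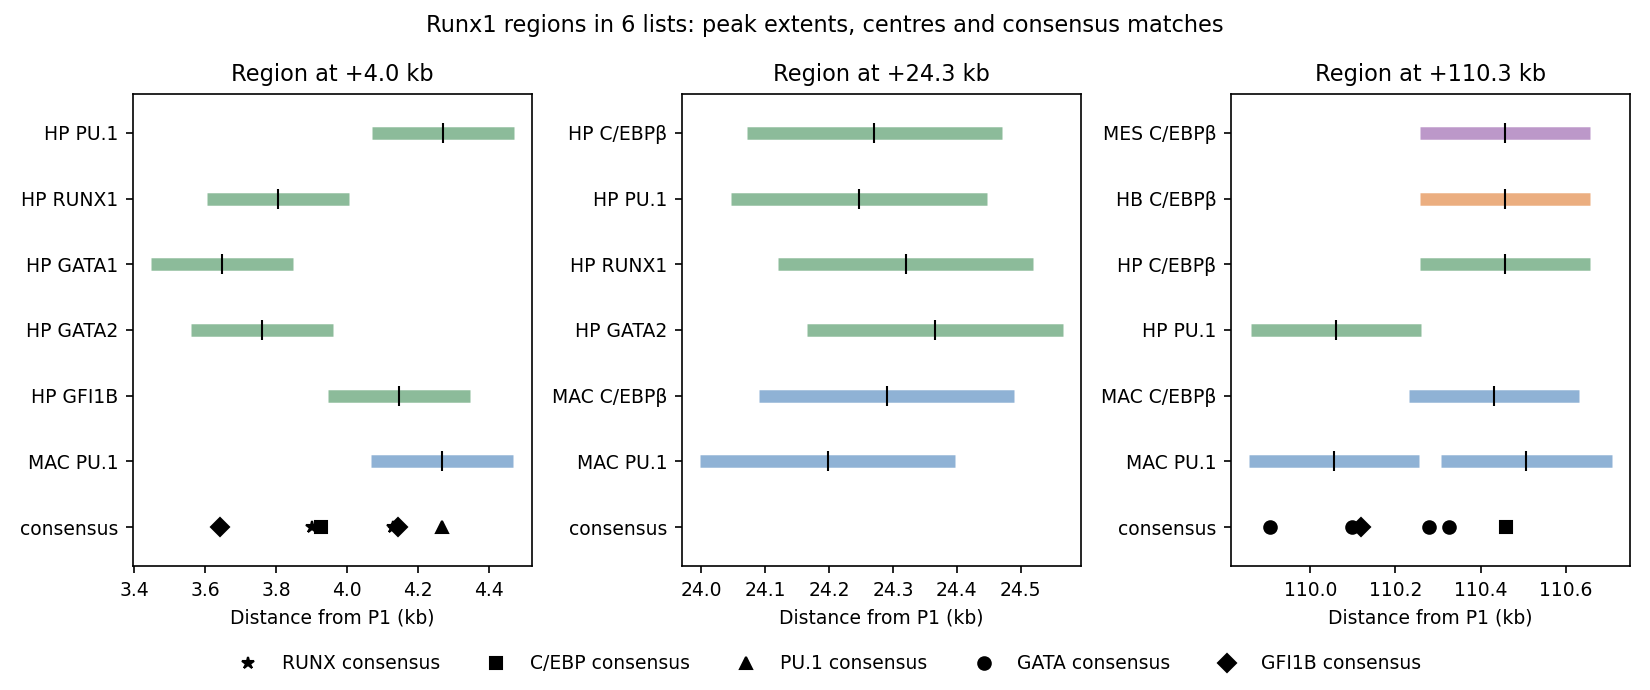
Extent (bars of 400 bp, coloured by stage) and centre (black tick) of each peak in the 3 Runx1 regions found in 6 lists, against distance from P1 in kb, with matches to the 7 consensus sequences in the bottom row. The centres of GATA1, GATA2 and RUNX1 lie apart from those of GFI1B and PU.1 at +4.0 kb, where the peaks of the sides meet at their edges, all peaks overlap at +24.3 kb without a consensus match, and the C/EBPβ peaks of 4 stages line up on 1 C/EBP consensus at +110.3 kb.

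At the Runx1 promoters, peaks centred within 2 kb numbered 5 from 3 lists at P1 and 7 from 4 lists at P2. All 5 at P1 were from MAC lists. The region over P1 (chr16:92825799-92826293) held MAC RUNX1 at 76 bp after the start, MAC C/EBPβ at 58 bp after it and MAC PU.1 at 20 bp before it, with centres within 95 bp of each other. It was centred in the untranslated first exon. No peak of the HP lists was centred within 2 kb of P1, and the HP peak closest to it was GFI1B at +2.26 kb, in a region (chr16:92823279-92824010, intron) that also held MAC C/EBPβ and MAC PU.1.

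At P2 the region chr16:92696506-92697009, in the untranslated part of the first exon of the P2 transcripts, held RUNX1 in both stages. The HP RUNX1 centre was 620 bp and the MAC RUNX1 centre 624 bp after the start, and the peaks overlapped by 396 bp. MAC C/EBPβ was centred 520 bp after the start in the same region. A MAC PU.1 peak that did not overlap them was centred 88 bp after the start. The RUNX1 peaks here held 1 TGTGGTT each, 18 bp from the HP centre and 14 bp from the MAC centre.

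RUNX1 peaks at its own gene thus lay at +3.80, +24.32 and +129.36 kb in HP and at +0.08 and +129.37 kb in MAC. One of the 3 HP peaks, that at P2, overlapped a MAC peak. Over the whole lists 36 of 977 HP peaks (3.69%, 2.59 to 5.07) overlapped a MAC RUNX1 peak, and 36 of 72 MAC peaks (50%, 38.0 to 62.0) overlapped an HP peak. The MAC list is short, so a missing MAC peak at +4.0 or +24.3 kb does not show loss of the factor. The 2 MAC peaks were 2.78% of that list (0.338 to 9.68), and 3 coding genes, Runx1 among them, had as many. The 3 HP peaks were 0.307% of the list (0.0634 to 0.895), a number reached by 16 coding genes, Runx1 among them.

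The 200 bp before each promoter are shown because MAC PU.1 peaks cover all of that before P1 and part of that before P2, and because the promoters differ in base composition. Both are on the minus strand and end at the base before the start.
Runx1 P1, chr16:92826075-92826274: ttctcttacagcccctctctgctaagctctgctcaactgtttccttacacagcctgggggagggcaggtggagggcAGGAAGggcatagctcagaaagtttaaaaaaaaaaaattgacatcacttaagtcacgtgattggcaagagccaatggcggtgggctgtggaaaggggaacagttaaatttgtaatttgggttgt
Runx1 P2, chr16:92697330-92697529: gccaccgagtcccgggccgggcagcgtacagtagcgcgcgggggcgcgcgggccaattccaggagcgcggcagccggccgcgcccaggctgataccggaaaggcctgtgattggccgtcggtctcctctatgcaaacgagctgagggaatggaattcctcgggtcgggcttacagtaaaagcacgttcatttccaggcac
P1 had 47.0% G and C and 1 match, an AGGAAG (24.7% of 32851 RefSeq promoters hold one in the same window). P2 had 65.5% G and C and no match to any of the forms searched.

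The 3 Runx genes share a run of 18 bases at their distal promoters, found by comparing the RefSeq promoter windows (250 bases before to 50 after the start). It is shown because it holds a pair of full RUNX consensus matches, each written AACCACA (the reverse complement of TGTGGTT), and because it lies under the MAC RUNX1 peak at Runx1. Capitals mark the shared run, each line follows its gene, and the strand is minus for Runx1 and Runx2 and plus for Runx3.
Runx1 P1, chr16:92826026-92826053: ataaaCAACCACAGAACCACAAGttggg
Runx2 P1, chr17:44814584-44814611: acaaaCAACCACAGAACCACAAGtgcgg
Runx3 P1, chr4:135120504-135120531: tccctCAACCACAGAACCACAAGgccag
The run begins 26 bases after the start of Runx1 transcription, 21 bases after that of Runx2 and 136 bases before that of Runx3. Of the 32851 promoter windows, 4 held it, those of the 3 Runx genes and of Gm16225, which starts on the opposite strand beside Runx3. A pair of TGTGGTT matches anywhere in the window was found in 67 promoters (0.204%), and at least 1 match in 5.27%. At Runx1 the run lay under the MAC RUNX1, MAC C/EBPβ and MAC PU.1 peaks, the nearest centre 23 bp away. At Runx2 and Runx3 no list had a peak over it, and the nearest peak centres were 1.68 kb (MAC PU.1) and 1.48 kb (MAC C/EBPβ) away.

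Away from the regions described so far, the Runx1 locus held mostly macrophage peaks, as did the series as a whole. MAC C/EBPβ and MAC PU.1 gave 30 and 49 of the 99 peaks at Runx1, beside 55471 and 82866 of all 158488. Of the 63 regions at Runx1, 54 held peaks of MAC C/EBPβ or MAC PU.1 and of no other list, 30 of them PU.1 alone, 13 C/EBPβ alone and 11 both. A MAC PU.1 peak met 15 of the 30 MAC C/EBPβ peaks at Runx1 (50%, 31.3 to 68.7), beside 42.5% over the whole C/EBPβ list. All 5 HP PU.1 peaks and all 3 HP C/EBPβ peaks at Runx1 overlapped a MAC peak of the same factor, beside 97.0% and 91.4% over the whole lists. The HP sites not yet named were PU.1 at +123.9 kb, 4.81 kb before P2, and C/EBPβ at +210.7 kb. That C/EBPβ peak held 1 C/EBP consensus, 31 bp from its centre.

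Runx2, which encodes the RUNX factor of bone, lies at chr17:44495987-44814797 on the minus strand, and the stretch between its promoters overlaps the gene Supt3. Its 45 peaks came from 3 lists, MAC PU.1, MAC C/EBPβ and HP PU.1, and formed 36 regions, of which 28 were in 1 list. The 1 region in 3 lists lay at +25.4 kb (chr17:44788932-44789458) in an intron of both genes, 12.03 kb from the nearest coding start, that of Supt3. Of the 7 regions in 2 lists the nearest to P1 are named. That at +1.71 kb (chr17:44812716-44813116) was the one within 2 kb of P1 and held HP PU.1 and MAC PU.1, and that at +31.3 kb (chr17:44783101-44783517) held the same lists. Within 2 kb of P2, which lies 77.98 kb from P1, there were 2 MAC C/EBPβ peaks and no other, and a MAC PU.1 peak stood just outside this window at +80.05 kb. MAC PU.1 had a counterpart to 5 of the 6 HP PU.1 peaks at Runx2, and the exception stood at +181.6 kb in an intron. For 9 of the 45 peaks the nearest coding start was that of Supt3.

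The sequence at +25.4 kb is shown as the Runx2 region in the most lists. It is on the minus strand.
Runx2 +25.4 kb, chr17:44789048-44789247: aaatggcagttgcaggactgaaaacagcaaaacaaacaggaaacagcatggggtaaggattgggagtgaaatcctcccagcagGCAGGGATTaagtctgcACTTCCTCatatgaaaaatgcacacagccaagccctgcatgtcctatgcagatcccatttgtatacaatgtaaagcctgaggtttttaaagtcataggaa
It held the PU.1 consensus, whose middle lay 12 bp from the HP PU.1 centre and 4 bp from the MAC PU.1 centre, and a GFI1B consensus 12 bp from the MAC PU.1 centre. No GFI1B peak lay at Runx2. The PU.1 consensus occurred in 16.7% of the central 200-bp windows of all regions and that of GFI1B in 6.82%. Over 400-bp peaks the PU.1 consensus was in 42.1% of the HP PU.1 list and 24.4% of the MAC PU.1 list.

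Runx3, the member known for T cell and neuronal development, lies at chr4:135120645-135177990 on the plus strand, with P2 31.9 kb after P1. Its 27 peaks came from the same 3 lists as those of Runx2 and formed 21 regions, of which 8 were intergenic. The 3 HP PU.1 peaks all lay downstream of the gene, at +61.4, +72.4 and +85.8 kb, and each overlapped a MAC PU.1 peak. The region in 3 lists was that at +72.4 kb (chr4:135192812-135193237), with HP PU.1, MAC PU.1 and MAC C/EBPβ centres within 26 bp of each other. The region at +58.7 kb (chr4:135179107-135179539) held MAC C/EBPβ and MAC PU.1, and that at +61.4 kb (chr4:135181863-135182288) HP PU.1 and MAC PU.1. P2 had 4 MAC PU.1 peaks within 2 kb, the nearest 288 bp before the start, and P1 had 1 MAC C/EBPβ peak, 1608 bp before the start. The nearest coding start was that of Runx3 for all 27 peaks.

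The downstream sequence is shown because 3 lists had centres in it and it holds no match to the 7 consensus sequences. It is on the plus strand.
Runx3 +72.4 kb, chr4:135192933-135193132: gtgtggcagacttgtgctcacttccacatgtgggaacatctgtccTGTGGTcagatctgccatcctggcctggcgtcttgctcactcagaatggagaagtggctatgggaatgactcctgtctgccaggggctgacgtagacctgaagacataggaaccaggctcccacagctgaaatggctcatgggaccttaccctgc
Its 1 match was a TGTGGT, 31 bp from the HP PU.1 centre, a form found in 17.6% of the central 200-bp windows of all regions.

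**Figure D4:**
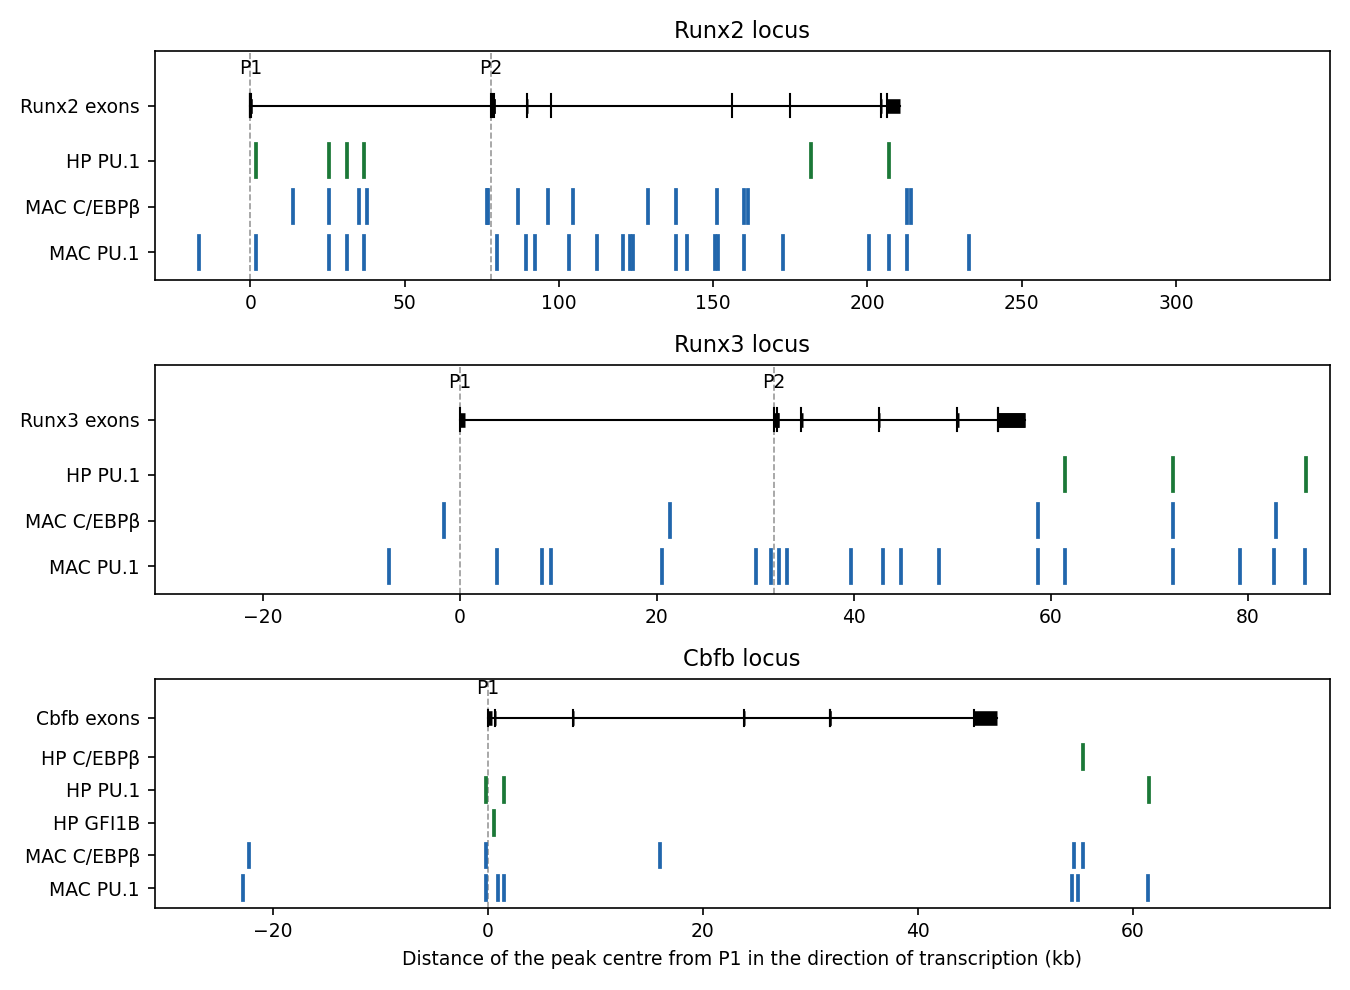
Peak centres at Runx2, Runx3 and Cbfb by list (rows, coloured by stage) against distance from P1 in kb, with the exons of curated transcripts above each map. HP peaks lie between P1 and P2 and in the 3′ part of Runx2, downstream of Runx3, and at the promoter of Cbfb and beyond its 3′ end.

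Cbfb, which encodes the shared partner of the RUNX proteins, lies at chr8:105170674-105217989 on the plus strand and has 1 promoter. Peaks came from 5 lists, and 7 of its 17 peaks, from 4 lists, were centred within 2 kb of the start. Over those whole lists, the shares within 2 kb of any coding start were 18.25% (HP PU.1), 18.04% (MAC PU.1), 16.35% (MAC C/EBPβ) and 42.27% (HP GFI1B). The region over the promoter (chr8:105170269-105170735) held HP PU.1 at 206 bp, MAC PU.1 at 204 bp and MAC C/EBPβ at 138 bp before the start. The next region (chr8:105171021-105171765, centred in an intron) held HP GFI1B at 546 bp and MAC PU.1 at 892 bp after the start. The third (chr8:105172000-105172406, intron) held PU.1 in HP and MAC about 1.53 kb after it. HP PU.1 and MAC PU.1 thus lay on both sides of the GFI1B peak.

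The extended Cbfb span also takes in neighbours. The nearest coding start was that of D230025D16Rik for 7 of the 17 peaks, among them the HP C/EBPβ peak, and that of Ces4a for 2. Counted by the nearest start, Cbfb kept 8 peaks, and its list count fell from 5 to 4.

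The sequence before the Cbfb start is shown as the region of that gene in the most lists. It is on the plus strand and ends at the base before the start.
Cbfb promoter, chr8:105170474-105170673: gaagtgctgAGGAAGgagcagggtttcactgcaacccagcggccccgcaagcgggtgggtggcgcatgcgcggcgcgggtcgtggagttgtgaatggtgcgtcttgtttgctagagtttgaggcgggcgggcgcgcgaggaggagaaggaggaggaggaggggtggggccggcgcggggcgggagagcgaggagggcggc
It had 70.0% G and C, and its 1 match was an AGGAAG 17 bp from the HP PU.1 centre and 16 bp from the MAC PU.1 centre. That form was found in 24.7% of RefSeq promoters over the same window and in 54.1% of the central 200-bp windows of all regions. The region also held a full PU.1 consensus at +0.005 kb, past the end of the printed sequence. It lay in the MAC C/EBPβ peak and in neither PU.1 peak.

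The RUNX consensus TGTGGTT was in 18 of the 99 Runx1 peaks (18.2%, 11.2 to 27.2), 7 of the 45 Runx2 peaks (15.6%, 6.49 to 29.5), 2 of the 27 Runx3 peaks (7.41%, 0.91 to 24.3) and none of the 17 Cbfb peaks (up to 19.5%). Over all peaks of the 14 lists the share was 10.9%, and over 400-bp windows without a peak at the same loci it was 8.42% at Runx1, 6.39% at Runx2, 10.4% at Runx3 and 13.6% at Cbfb. The Runx1 interval lay above both of its backgrounds for this form over 400 bp. The Runx2 interval lay above that of its windows and held that of all peaks, and the intervals of Runx3 and Cbfb held both. Overlapping peaks of different lists share sequence, so these peaks are not independent draws. With TGTGGT in place of TGTGGTT the share at Runx1 was 37.4% (27.9 to 47.7), and that over all peaks, 30.5%, lay within its interval. With TGTGGTT in the central 200 bp it was 10.1% (4.95 to 17.8), and that over all peaks, 6.39%, also lay within. Over 400 bp the GFI1B consensus at Runx1 also lay above both backgrounds (23.2%, 15.3 to 32.8, beside 13.6% of all peaks and 12.5% of windows). The PU.1 consensus at Runx1 (10.1%, 4.95 to 17.8) lay below its share of all peaks, 18.8%, and above that of windows, 0.859%.

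By list, TGTGGTT was in 2 of the 3 HP RUNX1 peaks and in both MAC RUNX1 peaks at Runx1, beside 26.2% and 47.2% of those whole lists. The MAC RUNX1 peak over P1 held 3 matches. The GATA consensus AGATAA was in none of the 3 HP GATA1 and GATA2 peaks at Runx1, beside 64% and 57.9% of the whole lists, shares that lie within the intervals of the 1 GATA1 peak (0 to 97.5) and the 2 GATA2 peaks (0 to 84.2). The PU.1 consensus was in 4 of the 17 HP PU.1 peaks at the 4 loci (23.5%, 6.81 to 49.9) and 14 of the 98 MAC PU.1 peaks (14.3%, 8.04 to 22.8), beside 42.1% and 24.4% over those lists. The C/EBP consensus was in 23 of 56 MAC C/EBPβ peaks (41.1%, 28.1 to 55.02), beside 41.9%. The interval for MAC PU.1 lay below the share of its list, and those for HP PU.1 and MAC C/EBPβ held the shares of theirs.

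Peak density over all 14 lists was 34.78 per 100 kb of extended span at Runx1, 23.01 at Runx3, 15.84 at Cbfb and 11.88 at Runx2. The median over 21774 coding genes was 10.11, and 96.5%, 84.8%, 68.5% and 56.3% of genes lay below these values. Density is set mostly by the MAC lists. Runx1 had a peak in 11 lists, a number reached by 9 coding genes (0.0413%), and the median gene had 3. The number of lists is not per length. Extended spans were 284.6 kb at Runx1, 378.8 kb at Runx2, 117.3 kb at Runx3 and 107.3 kb at Cbfb. Of those 9 genes, 4 had a single region in 8 or more lists and 5, Runx1 among them, did not. No Runx1 region was in more than 6. Among the 4, Rpp21 and Trim39 both held the 1 region found in 14 lists, and so count the same region. Nacc1 and Trmt1 had 13 lists each, with 51 and 53 peaks, and Itgb7 and Zfp740 11 each, with 29 peaks each. Sharing of peaks within these pairs was not examined, so the 9 genes are not 9 independent cases. A peak in all 6 HP lists was found at 47 genes (0.216%).

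**Figure D5:**
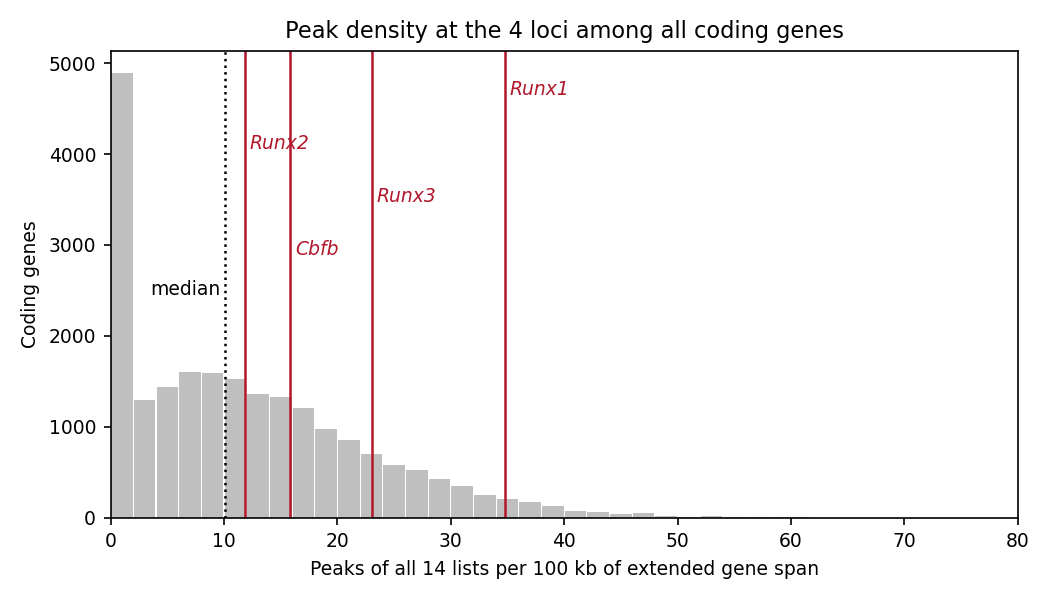
Number of coding genes (bars) by peaks of all 14 lists per 100 kb of gene span with 30 kb on each side. The red lines mark the 4 members, from 11.88 for Runx2 to 34.78 for Runx1, and the dotted line the median of 10.11.

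Likeness to Runx1 was counted as lists in the same state (peak or no peak). The coding genes most like it were Evi5, Map3k3 and Gse1, with 13 of 14 lists. Fosb and Rtn2 are named from the 27 genes tied at 12. Pearson's r of log2(peaks + 1) over the 14 lists was 0.964, 0.945, 0.920, 0.973 and 0.965. The r values are descriptions, since list length moves the counts of all genes together. The spans of Fosb and Rtn2 share 53.5 kb and so count the same peaks. Of all coding genes, 27 had 12 lists in the same state and 3 had 13.

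Among 27 genes for partners and cofactors of the RUNX proteins, 9 had an HP RUNX1 peak (33.3%, beside 9.43% of coding genes), 10 an HP GFI1B peak (37%, beside 14.4%) and 19 an HP PU.1 peak (70.4%, beside 44.1%). The MAC RUNX1 list had a peak at 1 of them (3.7%, beside 0.602%). Shares nearer to those of all coding genes were found for MES ELK4 (7.41%, beside 5.75%) and HB C/EBPβ (7.41%, beside 5.14%). Tal1, a basic helix-loop-helix factor of early blood, had peaks in 11 lists, as Runx1 did, and Lyl1, its close relative, in 10. Cbfa2t3, a corepressor of the ETO family, and Erg, an ETS factor, had peaks in 7 each. Gata1, Gata2, Lmo2, Cebpa and Cebpb had peaks in 3 lists each and Ldb1 in 2. Runx1t1, the fusion partner of RUNX1 in leukaemia, had peaks in 2. The median of the 27 was 4 lists, beside 3 for all coding genes.

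Among 11 genes described as targets of RUNX1 in blood cells, 3 had an HP RUNX1 peak (27.3%, beside 9.43% of coding genes), 5 an HP GFI1B peak (45.5%, beside 14.4%) and 6 an HP C/EBPβ peak (54.5%, beside 17.9%). A MAC RUNX1 peak was at none of the 11, from a list that reached 0.602% of coding genes. MES ELK4, HB C/EBPβ and HE C/EBPβ also had none there (beside 5.75%, 5.14% and 0.85% of coding genes). Spi1 and Cebpa are in both gene lists. Gfi1b, a repressor of the endothelial program, had peaks in all 6 HP lists and 8 lists in all, and Nfe2, a megakaryocyte and erythroid factor, in 8. Csf2 and Il3, both cytokine genes, had none in the HP lists. The median of the 11 was 4 lists, compared with 11 for Runx1.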

How the data were processed

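The deposited values are peak positions in base pairs, with no other score or count per peak: the authors gave 14 lists of 400-bp peaks, 1 per factor and stage. By the study's methods and the submitters' processing notes, reads were trimmed with CutAdapt, aligned to mm10 (GRCm38) with Bowtie, kept where unique and stripped of duplicates with Picard. Peaks were called with MACS against the input of the stage, at a p-value threshold set by eye, refined with polyPeak and cut to 400 bp at the summit. Tool versions are not given in the sources used here, and the study's numbers of aligned reads were not analysed here. Some lists pool technical sequencing runs, and HE chromatin was precipitated with carrier histone 2B and mRNA.

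Here, positions, gene spans and sequences were taken from RefSeq for GRCm38, and all peaks on its chromosomes ended within them. The 1 HP PU.1 peak on mitochondrial DNA was kept in list totals and left out of consensus and promoter shares. Peaks were merged at 1 bp of overlap. P1 and P2 are clusters of curated transcript starts more than 5 kb apart, and distances are from the first start of each. Percent intervals are 95% Clopper-Pearson (Python 3.11.15, SciPy 1.17.1). Overlap and consensus counting were tested on simulated data. The members and gene lists were chosen with earlier results of these data known. Regions were named if in at least 3 lists, or as the 3 in the most lists of a gene, ties going to the region nearest to the gene start. With 1 list per group no test was made. Alternatives were the flank, overlap, promoter window, consensus letters and leaving out the MAC C/EBPβ and MAC PU.1 lists.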

Additional observations from a re-analysis of the deposited data

How the results depend on the processing

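No paired analysis was possible because each factor and stage had 1 list, which also means that leaving out a replicate is not defined. A stricter peak threshold was not run, since the peaks carry no score. Of 80 alternatives, 58 stayed within 1.5 times the count or within the interval, and 22 moved. Without the MAC C/EBPβ and MAC PU.1 lists, the lists with a peak fell to 1 at Runx2, 1 at Runx3 and 3 at Cbfb, and Runx1 had 9 regions, 4 in at least 2 lists, 3 in at least 3 and 0 in at least 6. Merging at 200 bp of overlap left 1 Runx1 region in at least 6 lists, where merging at 1 bp gave 3. With no extension of the span Runx3 had 13 peaks and Cbfb 6, with 100 kb on each side 68 and 43, and 8 peaks had Cbfb as their nearest coding start. Within 1 kb P1 had 3 peaks, and within 5 kb P1 had 15 and P2 12. TGTGGT gave 37.4% of peaks at Runx1, 35.6% at Runx2 and 33.0% at the 4 loci. The central 200 bp gave 10.1% at Runx1 and 8.51% at the 4 loci. The intervals of both Runx1 shares held the share over all peaks, which that of TGTGGTT over 400 bp did not. The looser consensus forms, chosen after seeing the data, gave 3 matches in the window at +24.3 kb, where the main forms gave 0. The read depth behind the lists was not analysed here, and short lists limit what an absent peak can show.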
